A study of Mus musculus with 20 samples.

Results

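The genes described here are 10 members of the interleukin-6 (IL-6) family pathway: the cytokines Il6, Il11, Lif and Clcf1, the receptor chains Il6ra, Il6st, Lifr and Osmr, the transcription factor Stat3 and its feedback inhibitor Socs3. They were chosen by name, and all 10 of 10 were found among the 47729 gene identifiers of the count files and were tested. The series concerns inflammatory fibroblasts in therapy-resistant rectal cancer, and its libraries hold polyadenylated RNA of cultured colon fibroblasts from C57BL6/J mice. There were 5 groups of 4 libraries. They were untreated fibroblasts, which the labels call wild-type, and fibroblasts exposed for 24 h to APTK organoid medium or to APTKA organoid medium. The remaining groups, also exposed for 24 h, were those labelled irradiated for each medium (5 fractions of 2 Gy). APTK and APTKA are names of organoid lines that the labels do not expand, and which of the cells, organoid or fibroblast, received the dose is not stated. Irradiated APTK or APTKA medium is used below only as the name of such a group. No group was given unconditioned organoid medium, and none was irradiated without organoid medium. The replicates are numbered I to IV, with no word on whether each was its own culture or mouse. A p-value here therefore reflects only how far these libraries scatter, and that scatter may be technical.

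Cytokines of this family signal through the shared chain gp130, which Il6st encodes. IL-6 and IL-11 first bind a private receptor that gives them specificity. LIF and oncostatin M instead assemble gp130 with the LIF receptor or the oncostatin M receptor. The receptor complex activates JAK kinases, which phosphorylate STAT3, and STAT3 induces Socs3, whose product binds gp130 and shuts the signal down. In fibroblasts IL-6, LIF and IL-11 are known as secreted products of inflammatory activation.

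Each library held 17.3 to 31.6 M counts, and the 2 shallowest were irradiated APTK I (19.6 M) and II (17.3 M). The mitochondrial share of counts was 0.534 to 1.23% with irradiated APTK medium against 0.765 to 0.922% with APTK medium. The defining fibroblast markers Col1a1, Col1a2, Col3a1, Dcn, Lum, Pdgfra, Pdgfrb, Thy1 and Vim were detected in every library. Their summed level was 56028 to 63010.5 CPM (counts scaled to a common library total) in untreated, 48291 to 53840.3 with APTK medium and 28663 to 32766 with APTKA medium, and the 3 collagen genes make up most of that sum. With APTKA medium all 9 fell. With APTK medium Pdgfra, Lum and Thy1 rose, Col3a1 fell and 5 did not pass, with a median log2 fold change of 0.054. Epcam and Ptprc, which mark epithelium and leukocytes, reached at most 0.105 and 0.195 CPM in any library. Of the other epithelial markers, Cdh1 and Krt8 reached at most 0.117 and 0.0382 CPM. Krt18, Krt19 and Krt20 had reads in every library and reached 0.803, 1.51 and 0.967 CPM. The pericyte and smooth muscle markers Cnn1 and Myh11 were at 330 to 574 and 195 to 383 CPM. Cspg4, Rgs5 and Des reached at most 21.5, 3.68 and 5.29 CPM. The 8 leukocyte and macrophage markers summed to 8.08 to 11.7 CPM in any library. Of these, Cd14 was at 1.27 ± 0.249 CPM in untreated and 4.39 ± 0.303 CPM with APTKA medium, and Lyz2 at 6.19 ± 0.491 and 2.12 ± 0.481 CPM (SD, n = 4); their part in the results below was not tested. In such bulk libraries, fewer cells of a type and less RNA per cell cannot be told apart.

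Stretches before the start sites of 3 cytokine genes are shown because these genes rose with APTKA medium. Each is 250 bases long, is taken from RefSeq (build GRCm38.p6) and is written 5′ to 3′ on the strand of the gene. Capitals mark matches to motifs searched on both strands: TTCNNNGAA for STAT factors, TGANTCA for AP-1, TTGCNNAA for C/EBP and the NF-kB motif. The windows were chr5:30012864-30013113 on the plus strand for Il6, chr11:4257318-4257567 on the plus strand for Lif and chr7:4778142-4778391 on the minus strand for Il11, at the second of 2 listed start sites of that gene.
Il6: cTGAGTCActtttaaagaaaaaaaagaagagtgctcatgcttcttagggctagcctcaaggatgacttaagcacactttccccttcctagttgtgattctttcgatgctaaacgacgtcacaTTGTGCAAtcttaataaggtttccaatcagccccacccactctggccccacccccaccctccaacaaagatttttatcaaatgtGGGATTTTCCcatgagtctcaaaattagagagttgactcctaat
Lif: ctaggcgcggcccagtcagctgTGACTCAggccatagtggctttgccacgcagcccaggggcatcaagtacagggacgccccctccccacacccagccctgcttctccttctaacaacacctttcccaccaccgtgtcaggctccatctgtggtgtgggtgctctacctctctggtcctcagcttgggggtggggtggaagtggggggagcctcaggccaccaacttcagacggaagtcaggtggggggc
Il11: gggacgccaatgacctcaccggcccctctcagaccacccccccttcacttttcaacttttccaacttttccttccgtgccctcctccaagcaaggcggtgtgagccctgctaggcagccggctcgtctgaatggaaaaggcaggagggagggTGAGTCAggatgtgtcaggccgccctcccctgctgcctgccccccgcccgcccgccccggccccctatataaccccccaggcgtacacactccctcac

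All 3 windows shown held an AP-1 match, a motif found in 6.75% of all 32851 RefSeq windows of this length. The window at the first listed start site of Il11, which is not shown, held no match to any of these motifs. The Il6 window also held an NF-kB match 44 to 35 bases before the start (4.11% of all windows) and a C/EBP match (9.56%). The remaining windows of the family held 1 match, a STAT match in Socs3 (TTCTTAGAA, 154 to 146 bases before its RefSeq start), a motif found in 7.02% of all windows. Clcf1 was not among the windows used here. A match is a description of these letters, not evidence of binding.

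The first question was how the family differs between fibroblasts in APTKA medium and untreated ones. Il6, Lif and Il11 rose, the receptor chains Il6st and Lifr fell, Osmr rose and Stat3 fell slightly. In all, 4 members rose and 3 fell among 10, where 31.5% of the 14820 genes tested were called higher and 29.9% lower (61.4% in either direction), so the count of members called lies near that of all genes. The median log2 fold change of the members was 0.34, against 0.0031 over all genes tested. With APTK medium 2 members rose and 3 fell (20.9% and 22.5% of all genes were called higher and lower, 43.4% in all), with a median of -0.09 against 0.0029 over all genes. These 2 comparisons share their untreated libraries.

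**Figure D1:**
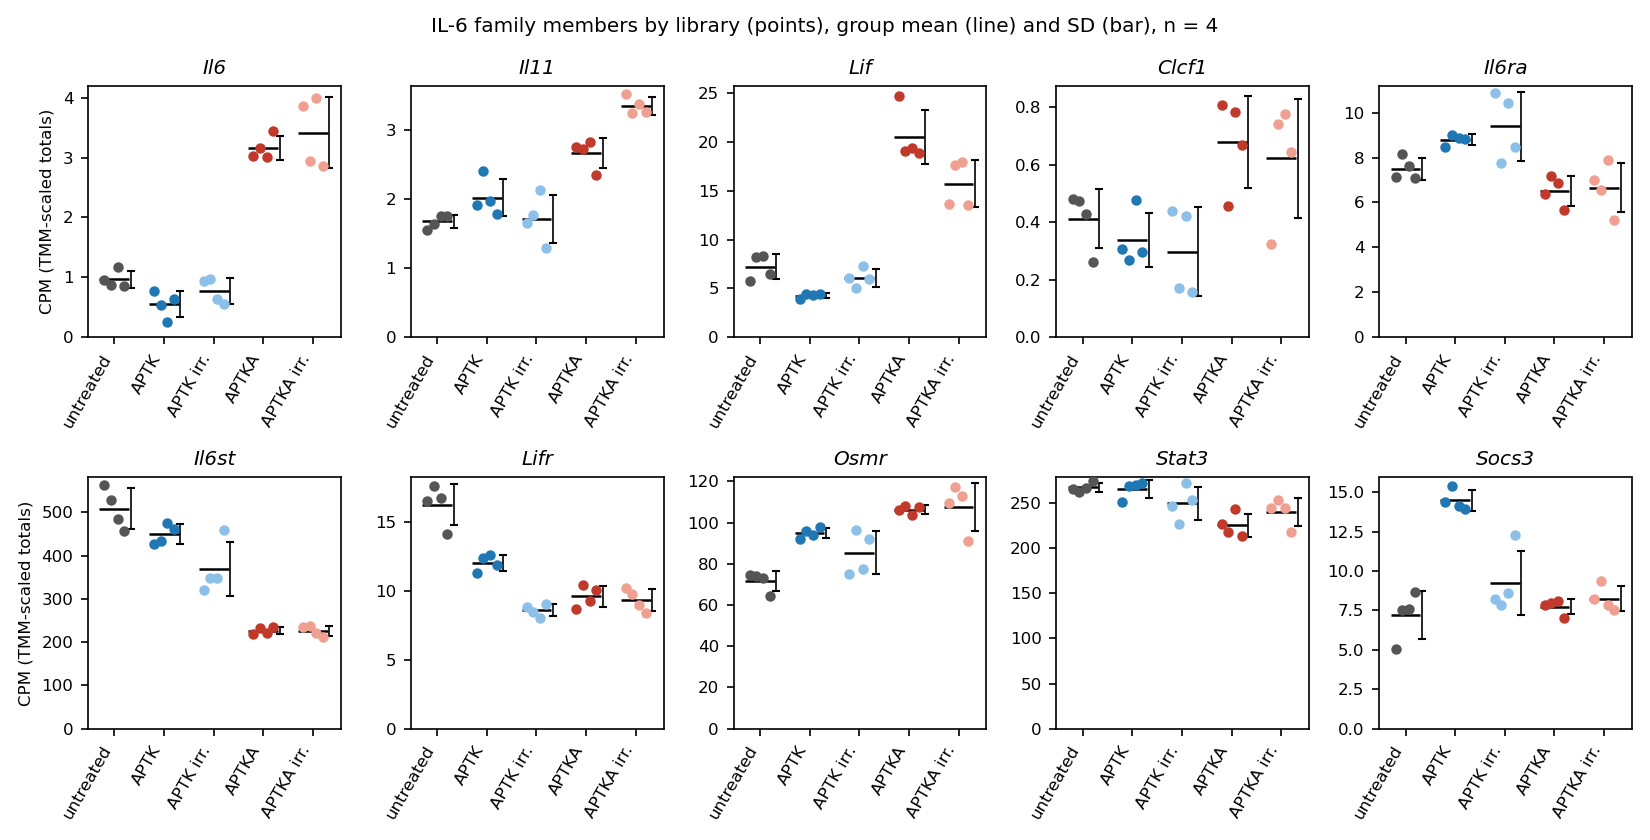
Level of each member in every library, in CPM (vertical axes from 0) for the 5 groups on the horizontal axes; points are libraries I to IV from left to right, lines are group means and bars the SD (n = 4). Il6 and Lif are highest in the 2 APTKA groups, Il6st is lowest there, and Socs3 is highest with plain APTK medium.

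Il6, the founding cytokine of the family (ENSMUSG00000025746, mm10 chromosome 5, 30013114 to 30019981), was at 0.960, 0.863, 1.17 and 0.859 CPM in untreated libraries I to IV. It was at 3.03, 3.15, 3.00 and 3.45 CPM with APTKA medium and at 0.768, 0.535, 0.256 and 0.637 CPM with APTK medium. Every APTKA library lay above every untreated one, and every APTK library lay below them. The log2 fold change with APTKA medium was 1.71 ± 0.198 SE, or 3.26-fold (edgeR's quasi-likelihood test, adjusted p = 2.38e-08). The level with APTK medium was lower than in untreated by -0.82 ± 0.264 (adjusted p = 0.0131), a call lost without untreated III (-0.71, adjusted p = 0.0506) or APTK III (-0.57, adjusted p = 0.0718). These are small numbers of reads, 97 over the 4 untreated libraries, 56 with APTK medium and 337 with APTKA medium. Between the plain media Il6 was 5.76-fold higher with APTKA medium (log2 2.53 ± 0.219, adjusted p = 9.92e-11).

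Lif, leukaemia inhibitory factor (ENSMUSG00000034394, chromosome 11, 4257557 to 4272514), was at 5.80, 8.24, 8.32 and 6.50 CPM in untreated libraries. With APTKA medium it was at 24.7, 19.1, 19.4 and 18.9 CPM, and with APTK medium at 3.88, 4.40, 4.28 and 4.41 CPM. The 3 groups did not overlap, with APTKA on top and APTK at the bottom, the same order as for Il6. It rose 2.85-fold with APTKA medium (log2 1.51 ± 0.125, adjusted p = 4.70e-11) and fell with APTK medium (-0.76 ± 0.142, adjusted p = 8.78e-05). Between the plain media the difference was 4.84-fold (2.27 ± 0.133, adjusted p = 5.11e-14).

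Il11, a cytokine known from fibrosis and stromal biology (ENSMUSG00000004371, chromosome 7, 4772373 to 4782859), was at 1.56, 1.64, 1.76 and 1.76 CPM in untreated and at 2.76, 2.73, 2.83 and 2.35 CPM with APTKA medium. With APTK medium it was at 1.92, 2.41, 1.98 and 1.78 CPM, above every untreated library by a narrow margin. The rise with APTKA medium was 1.59-fold (log2 0.67 ± 0.147, adjusted p = 0.000283). The value for APTK medium was 0.27 (95% interval -0.04 to 0.58, adjusted p = 0.159). APTKA exceeded APTK medium by 0.40 ± 0.142 (adjusted p = 0.0169), a call lost without APTK IV (0.35, adjusted p = 0.0544) and without a filter on low counts (0.40, adjusted p = 0.0630). Unlike Il6 and Lif, Il11 was not lower with APTK medium than in untreated libraries.

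Clcf1, cardiotrophin-like cytokine factor 1 (ENSMUSG00000040663, chromosome 19, 4214238 to 4223490), had the fewest reads of the family, 3 to 24 a library. Its means were 0.411 ± 0.102 CPM in untreated, 0.337 ± 0.0939 with APTK and 0.678 ± 0.161 with APTKA medium (SD, n = 4). Libraries of these groups overlapped. The difference between the plain media passed (0.98 ± 0.332, adjusted p = 0.0117), whereas APTKA against untreated did not (0.72, 95% interval 0.06 to 1.38, adjusted p = 0.0553) and passed without APTKA II (0.88, adjusted p = 0.0269) and in a fit of these 2 groups alone (0.73, adjusted p = 0.0411). Its exons share 311 bases with AC109138.7 on the same strand, a gene model that has no identifier among those of the count files, and how reads there were counted is not given in the sources used here.

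Il6st, the gp130 gene (ENSMUSG00000021756, chromosome 13, 112464070 to 112510086), was the most abundant receptor chain. It was at 563, 529, 486 and 457 CPM in untreated libraries, at 427, 434, 475 and 462 CPM with APTK medium and at 219, 232, 220 and 235 CPM with APTKA medium. The APTKA libraries lay far below all others, while the untreated and APTK libraries overlapped. The fall with APTKA medium was -1.17 ± 0.0822 (adjusted p = 5.25e-12), a 2.24-fold lower level, and the difference from APTK medium was -0.99 ± 0.0819 (adjusted p = 1.21e-10). For APTK medium against untreated the value was -0.18 (95% interval -0.34 to -0.01, adjusted p = 0.0787). It passed without untreated IV (-0.23, adjusted p = 0.0352), in a fit of these 2 groups alone (-0.17, adjusted p = 0.0292) and without a filter (-0.16, adjusted p = 0.0335). The summed fibroblast markers given above fell with the same medium, and their part in this result was not tested.

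Lifr, which pairs with gp130 for LIF (ENSMUSG00000054263, chromosome 15, 7090614 to 7197489), was at 16.5, 17.6, 16.7 and 14.1 CPM in untreated libraries. It was at 11.3, 12.4, 12.6 and 11.9 CPM with APTK medium and at 8.68, 10.4, 9.22 and 10.0 CPM with APTKA medium. The 3 groups were separate, with untreated highest. It fell with both media (-0.76 ± 0.0857, adjusted p = 1.48e-08 with APTKA; -0.43 ± 0.0843, adjusted p = 0.000149 with APTK), and was lower with APTKA than with APTK medium (-0.33 ± 0.0871, adjusted p = 0.00186).

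Osmr, which encodes the oncostatin M receptor (ENSMUSG00000022146, chromosome 15, 6813577 to 6874969), moved the other way. It was at 74.4, 74.0, 73.2 and 64.4 CPM in untreated libraries, at 92.0, 95.9, 93.9 and 97.9 CPM with APTK medium and at 106, 108, 104 and 108 CPM with APTKA medium. Every library given either medium exceeded every untreated one. The rises were 1.49-fold with APTKA medium (0.57 ± 0.0737, adjusted p = 1.60e-07) and 1.33-fold with APTK medium (0.41 ± 0.0739, adjusted p = 5.86e-05). The 2 plain media differed by 0.16 (95% interval 0.01 to 0.31), just outside the threshold (adjusted p = 0.0528). That difference passed with RLE scaling (0.17, adjusted p = 0.0494), with the replicate number as a block (0.16, adjusted p = 0.0492), in a fit of the 2 groups alone (0.17, adjusted p = 0.00113) and without a filter (0.17, adjusted p = 0.0141). Osm, the ligand gene of this receptor, had 2 reads over all 20 libraries.

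Il6ra, the private IL-6 receptor chain (ENSMUSG00000027947, chromosome 3, 89864059 to 89913196), had means of 7.51 ± 0.490 CPM in untreated, 8.80 ± 0.247 with APTK and 6.52 ± 0.670 with APTKA medium (SD, n = 4). Neither medium differed from untreated beyond the threshold (-0.20, 95% interval -0.44 to 0.04, with APTKA; 0.23, 95% interval -0.0052 to 0.47, with APTK). The APTK value passed in a fit of these 2 groups alone (0.24, adjusted p = 0.0285). Between the plain media it was lower with APTKA (-0.43 ± 0.116, adjusted p = 0.00203), and those libraries did not overlap. Its exons share 242 bases with Gm42809 on the opposite strand, and reads there cannot be told apart without a known strand setting.

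**Figure D2:**
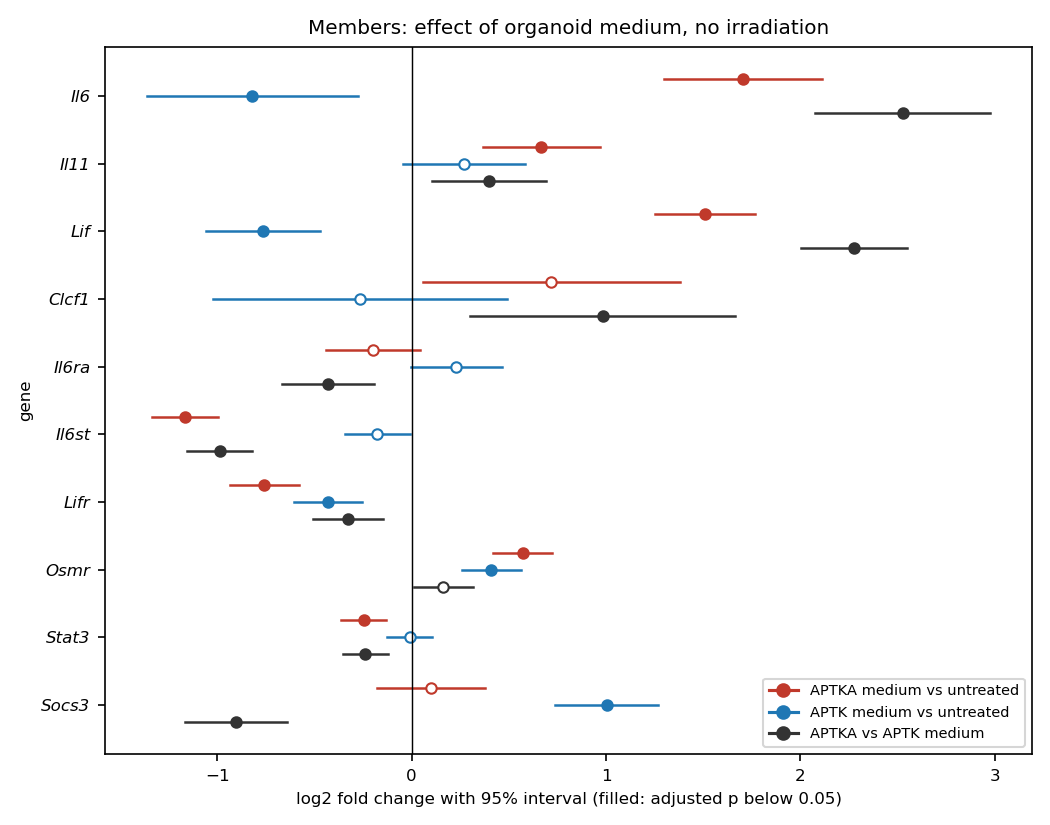
Log2 fold change of each member (genes on the vertical axis, log2 fold change on the horizontal axis) between plain media and untreated fibroblasts and between the 2 media, with 95% intervals; filled points passed the 5% threshold. The cytokines Il6 and Lif lie at 1.71 and 1.51 with APTKA medium and at -0.82 and -0.76 with APTK medium, while Socs3 lies at 0.10 and 1.00.

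Stat3, the transcription factor itself (ENSMUSG00000004040, chromosome 11, 100885098 to 100939540), differed little between groups. Its means were 267 ± 4.95 CPM in untreated, 266 ± 9.55 with APTK and 225 ± 13.1 with APTKA medium (SD, n = 4). It fell by 0.25 on the log2 scale with APTKA medium (SE 0.0563, adjusted p = 0.000419), and APTKA was lower than APTK medium by a similar amount (-0.24, adjusted p = 0.000606). For APTK medium the value was -0.01 (95% interval -0.12 to 0.11, adjusted p = 0.917). It shares 72 exon bases with Stat5a on the opposite strand.

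Socs3, the feedback inhibitor (ENSMUSG00000053113, chromosome 11, 117966079 to 117970047), did not follow the cytokines. It was at 5.08, 7.50, 7.62 and 8.66 CPM in untreated libraries, at 14.4, 15.4, 14.2 and 14.0 CPM with APTK medium and at 7.87, 7.99, 8.09 and 7.02 CPM with APTKA medium. The APTK libraries stood above all others, and the untreated and APTKA libraries overlapped. The rise with APTK medium was 2.00-fold (log2 1.00 ± 0.129, adjusted p = 4.62e-07). With APTKA medium the value was 0.10 (95% interval -0.18 to 0.38, adjusted p = 0.536), and it turned to -0.04 without untreated I, the lowest untreated library. Socs3 was thus 1.87-fold lower with APTKA than with APTK medium (-0.90 ± 0.127, adjusted p = 6.83e-07). Between the plain media 9 of 10 members were called, 4 higher and 5 lower with APTKA, where 62.9% of all genes were called (31.1% higher, 31.8% lower). The member median was -0.04 against -0.026 over all genes.

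Levels of different genes can be compared only per length, here as CPM per kilobase of annotated exon. In untreated libraries Il6st was at 45.8 ± 4.20 and Stat3 at 28.1 ± 0.520, followed by Osmr at 5.90 ± 0.394 and Socs3 at 2.496 ± 0.525 (SD, n = 4). The cytokine Lif was at 1.66 ± 0.290, the chain Lifr at 1.51 ± 0.138, Il6ra at 0.868 ± 0.0567, Il11 at 0.806 ± 0.0463, Il6 at 0.397 ± 0.0604 and Clcf1 at 0.108 ± 0.0269. With APTKA medium Lif reached 4.71 ± 0.643, Il6 1.30 ± 0.0848 and Il11 1.28 ± 0.103, while Il6st was at 20.4 ± 0.737 and Stat3 at 23.7 ± 1.38. By this measure Il6st thus lay above Stat3 in untreated libraries and below it with APTKA medium, and Lif was the highest of the 4 cytokines in both groups. The lengths count all annotated exons (11099 bases for Il6st, 9527 for Stat3). Which of them these cells used was not tested, and the order of genes at close values may depend on it.

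The next comparisons asked what irradiation added within each medium. Within APTKA medium none of the 10 members was called by edgeR (0.729% of all genes were). DESeq2 also called 0 members, a fit without a filter called 1, Lif (-0.37, adjusted p = 0.0124), and the test found 1861 of all genes at an unadjusted p below 0.05. Within APTK medium 2 members fell, Lifr and Socs3, and none rose (1.38% of all genes were called, 0.837% lower). The member medians were 0.02 within APTKA and -0.16 within APTK medium, against 0.0044 and 0.0036 over all genes.

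Socs3 was at 8.24, 7.86, 8.63 and 12.3 CPM with irradiated APTK medium, below every plain APTK library. The 4th library stood above the others of its group. The fall was -0.64 ± 0.127 (adjusted p = 0.0142). It was lost without irradiated APTK I (-0.59, adjusted p = 0.0648) or III (-0.60, adjusted p = 0.0570), in a fit of these 2 groups alone (-0.64, adjusted p = 0.114) and without the 2 shallowest libraries (-0.48, adjusted p = 0.242), and was larger without library IV (-0.81, adjusted p = 7.53e-05). Within APTKA medium Socs3 was at 0.09 (95% interval -0.18 to 0.36). The difference between these effects did not pass (0.73, 95% interval 0.35 to 1.10, adjusted p = 0.108), but passed without irradiated APTK IV (0.90, adjusted p = 0.00195), with DESeq2 (0.73, adjusted p = 0.0182) and without a filter (0.76, adjusted p = 0.000275).

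Lifr was at 8.79, 8.43, 8.03 and 9.06 CPM with irradiated APTK medium, again below every plain APTK library. It fell by 0.49 on the log2 scale (SE 0.0896, adjusted p = 0.00769). That call was lost in a fit of these 2 groups alone (-0.49, adjusted p = 0.0886) and without the 2 shallowest libraries (-0.50, adjusted p = 0.0570). Within APTKA medium the value was -0.04 (95% interval -0.22 to 0.14), and the difference between the effects did not pass (0.45, 95% interval 0.19 to 0.71, adjusted p = 0.159).

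Lif was at 6.10, 4.99, 7.26 and 5.93 CPM with irradiated APTK medium and at 13.7, 17.7, 18.0 and 13.5 CPM with irradiated APTKA medium. The irradiated APTK libraries all lay above the plain ones, and the irradiated APTKA libraries all lay below theirs. Neither effect passed on its own (0.53, 95% interval 0.23 to 0.83, adjusted p = 0.0664 within APTK; -0.39, 95% interval -0.62 to -0.15, adjusted p = 0.122 within APTKA). The APTK value passed without irradiated APTK IV (0.55, adjusted p = 0.0362), with DESeq2 (0.53, adjusted p = 0.0215) and without a filter (0.52, adjusted p = 0.00177). The difference between the effects passed (-0.92 ± 0.187, adjusted p = 0.0303), the only member called there, where 0.182% of all genes were (0.0607% lower). The call is fragile: leaving out any of 12 of the 16 libraries brought the adjusted p to between 0.0539 and 0.0962, with values from -0.96 to -0.81. Those libraries were plain APTK I to IV, irradiated APTK I and III, plain APTKA I to IV and irradiated APTKA I and IV.

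**Figure D3:**
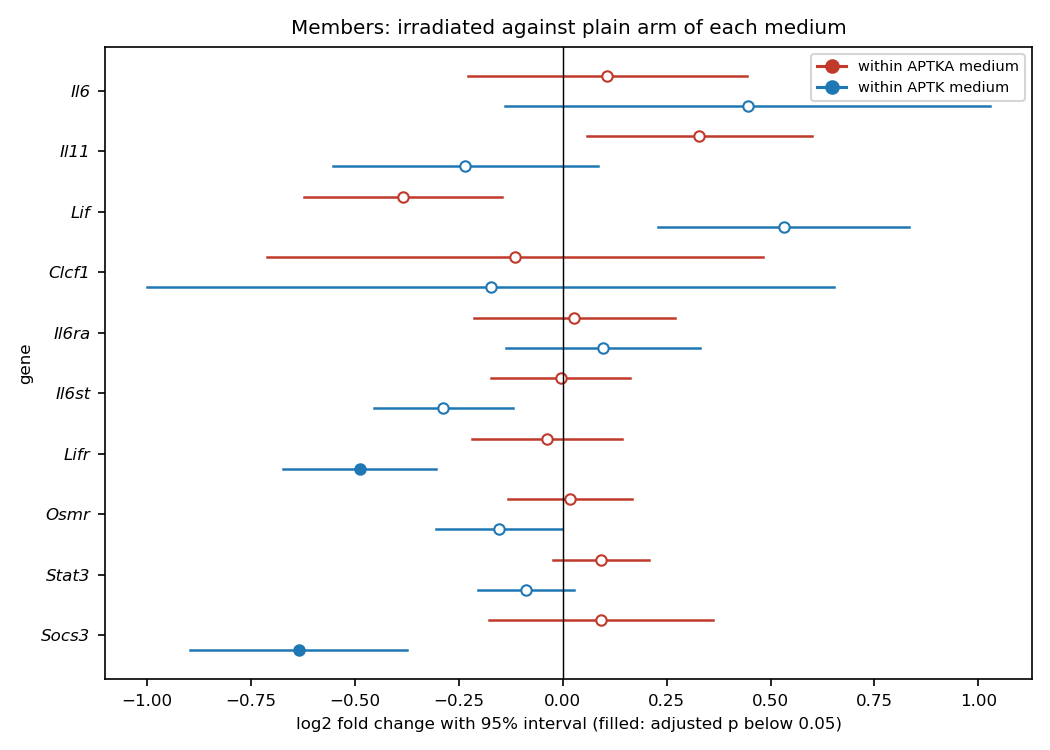
Log2 fold change of each member (genes on the vertical axis, log2 fold change on the horizontal axis) between the irradiated and the plain arm of each medium, with 95% intervals; filled points passed the 5% threshold. Lifr (-0.49) and Socs3 (-0.64) passed within APTK medium, and Lif lies at 0.53 within APTK and -0.39 within APTKA medium.

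The remaining members did not pass within either medium. Il6st was at 320, 348, 347 and 459 CPM with irradiated APTK medium, so that the 4th library again stood above the others. Its value was -0.29 (95% interval -0.45 to -0.12, adjusted p = 0.0754), and it passed without that library (-0.41, adjusted p = 0.000122), with DESeq2 (-0.29, adjusted p = 0.0357) and without a filter (-0.30, adjusted p = 0.000182). The difference between the Il6st effects was 0.28 (adjusted p = 0.433) and passed without irradiated APTK IV (0.41, adjusted p = 0.00786) and without a filter (0.31, adjusted p = 0.0426). Il11 was at 3.53, 3.25, 3.37 and 3.26 CPM with irradiated APTKA medium, above every plain APTKA library, but did not pass (0.33, 95% interval 0.06 to 0.60, adjusted p = 0.277). Il6 was at 3.85, 2.94, 4.00 and 2.87 CPM with irradiated APTKA medium and at 0.934, 0.975, 0.631 and 0.547 CPM with irradiated APTK medium, overlapping the plain arm in both. For Clcf1, Il6ra, Osmr and Stat3 the values lay between -0.17 and 0.10.

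Without irradiated APTK IV, 4 members were called within APTK medium (Lif higher, and Il6st, Lifr and Socs3 lower) and the count over all genes rose from 205 to 1271. Without irradiated APTK I or III 1 member was called, with 33 and 47 of all genes. Without the 2 shallowest libraries 0 of 10 were called, with 27 of all genes.

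Comparing the irradiated media with each other, 5 members were higher with APTKA (Il6, Il11, Lif, Clcf1 and Osmr) and 2 lower (Il6ra and Il6st), where 30.1% and 31.2% of all genes were called higher and lower (61.3% in all). The member median was 0.23 against -0.031 over all genes. All 4 cytokines were higher: Il6 by 2.19 ± 0.211 (adjusted p = 9.06e-10), Lif by 1.36 ± 0.130 (adjusted p = 9.69e-10), Il11 by 0.96 ± 0.145 (adjusted p = 1.98e-06) and Clcf1 by 1.04 ± 0.354 (adjusted p = 0.0127). The Clcf1 call was lost without irradiated APTK IV (0.80, adjusted p = 0.0653). Il6st was lower by -0.71 ± 0.0816 (adjusted p = 4.71e-08), Il6ra by -0.50 ± 0.116 (adjusted p = 0.000511), and Osmr was higher by 0.34 ± 0.0735 (adjusted p = 0.000288). Socs3 was at -0.18 (95% interval -0.44 to 0.09), Lifr at 0.12 (95% interval -0.06 to 0.31) and Stat3 at -0.06 (95% interval -0.17 to 0.06). Stat3 passed with upper quartile scaling (-0.13, adjusted p = 0.0415).

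In the order of group means, neighbouring groups often overlapped. For Il6 the order from low to high was APTK, irradiated APTK, untreated, APTKA and irradiated APTKA, and only the step from untreated to APTKA was free of overlap. For Lif the order was APTK, irradiated APTK, untreated, irradiated APTKA and APTKA, and only irradiated APTK and untreated overlapped. For Socs3 the 4 lower groups overlapped their neighbours, and plain APTK stood alone at the top. For Il6st the step from APTKA to irradiated APTK was free of overlap, and for Il11 that from APTKA to irradiated APTKA. For Lifr the steps from APTKA to APTK and on to untreated were free of overlap, and for Osmr those from untreated to irradiated APTK and from APTK to APTKA. For Il6ra the step from untreated to APTK was free of overlap, and all neighbours overlapped for Clcf1 and Stat3.

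Of 43 other genes of the pathway 35 were tested. With APTKA medium 20 of them rose and 8 fell, with a median log2 fold change of 0.30, and with APTK medium 12 rose and 10 fell (median 0.10). Over all genes tested 31.5% were called higher and 29.9% lower with APTKA medium (median 0.0031), and 20.9% and 22.5% with APTK medium (median 0.0029). For irradiation within APTKA medium 0 of 35 were called (0.729% of all genes were), and within APTK medium 1 was (1.38% of all genes). That gene was Cebpd, a transcription factor of the acute-phase response (-0.39 ± 0.0917, edgeR, adjusted p = 0.0300). These lists were written with earlier results of these data known.

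Among the other ligand genes Ctf1, cardiotrophin 1, fell with APTKA medium from 3.02 ± 0.381 to 1.61 ± 0.289 CPM (log2 -0.92 ± 0.159). Among 3 tested receptors of 4, Il11ra1, the private IL-11 receptor, fell with APTKA (-0.43 ± 0.0740) and rose with APTK medium (0.23 ± 0.0725). Cntfr, the ciliary neurotrophic factor receptor, rose with both (1.10 ± 0.288 and 0.76 ± 0.300), and Il27ra rose with APTK medium (0.65 ± 0.220).

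In the lists that follow, the share of all genes called in either direction was 61.4% with APTKA and 43.4% with APTK medium. Of the sheddases and kinases 2 rose and 2 fell among 5 with APTKA medium, and 3 fell with APTK medium. Jak2, a kinase bound to these receptors, fell from 86.8 ± 2.33 to 47.5 ± 2.83 CPM with APTKA medium (-0.87 ± 0.0692). Adam10, a sheddase of membrane proteins, fell with both (-0.78 ± 0.0590 and -0.33 ± 0.0583). In the other direction, Tyk2 went from 41.0 ± 2.02 to 51.2 ± 2.74 CPM and Adam17 from 86.2 ± 2.29 to 94.5 ± 2.19 CPM with APTKA medium. Among 9 negative regulators 6 rose and 2 fell with APTKA medium, and 3 rose and 2 fell with APTK medium. Cish and Socs2, relatives of Socs3 known as STAT5 targets, rose with APTKA (1.89 ± 0.211 and 0.87 ± 0.0824) and with APTK medium (0.65 ± 0.239 and 1.04 ± 0.0822). Socs1 fell with APTKA medium from 3.94 ± 0.684 to 2.17 ± 0.296 CPM (-0.86 ± 0.154). The other regulator that fell, named after its value was seen, was Pias3 (-0.68 ± 0.0736). Pias1 went up with APTKA medium, from 22.7 ± 2.02 to 40.1 ± 1.69 CPM, and was at 28.3 ± 1.47 CPM with APTK medium.

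Of 17 genes known as STAT3 targets 16 were tested, of which 11 rose and 1 fell with APTKA medium (median 0.46) and 6 rose and 4 fell with APTK medium (median 0.23). The shares of all genes called were 31.5% higher and 29.9% lower with APTKA medium and 20.9% and 22.5% with APTK medium. Saa3, an acute-phase gene, went from 0.0911 ± 0.0719 to 65.5 ± 31.96 CPM with APTKA medium (log2 9.43 ± 0.794, adjusted p = 2.80e-08). Bcl3, an atypical I-kappa-B protein, rose with APTKA medium (2.00 ± 0.170), and Cebpd rose with both media (1.39 ± 0.0918 and 0.82 ± 0.0930). Bcl3 was at 2.71 ± 0.547 CPM in untreated, 4.14 ± 0.361 with APTK and 10.8 ± 1.39 with APTKA medium. Timp1, an inhibitor of matrix proteases, rose with APTKA medium (0.96 ± 0.0735). With APTK medium Vegfa, an angiogenic factor, rose by 0.98 ± 0.0788 and Il4ra, a chain of the IL-4 receptor, by 0.91 ± 0.0637. Ccnd1, cyclin D1, rose with APTK medium (1.01 ± 0.150) and was the gene of this list that fell with APTKA medium (-0.66 ± 0.151), the latter named after its value was seen. Most of these genes are also regulated by factors other than STAT3.

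**Figure D4:**
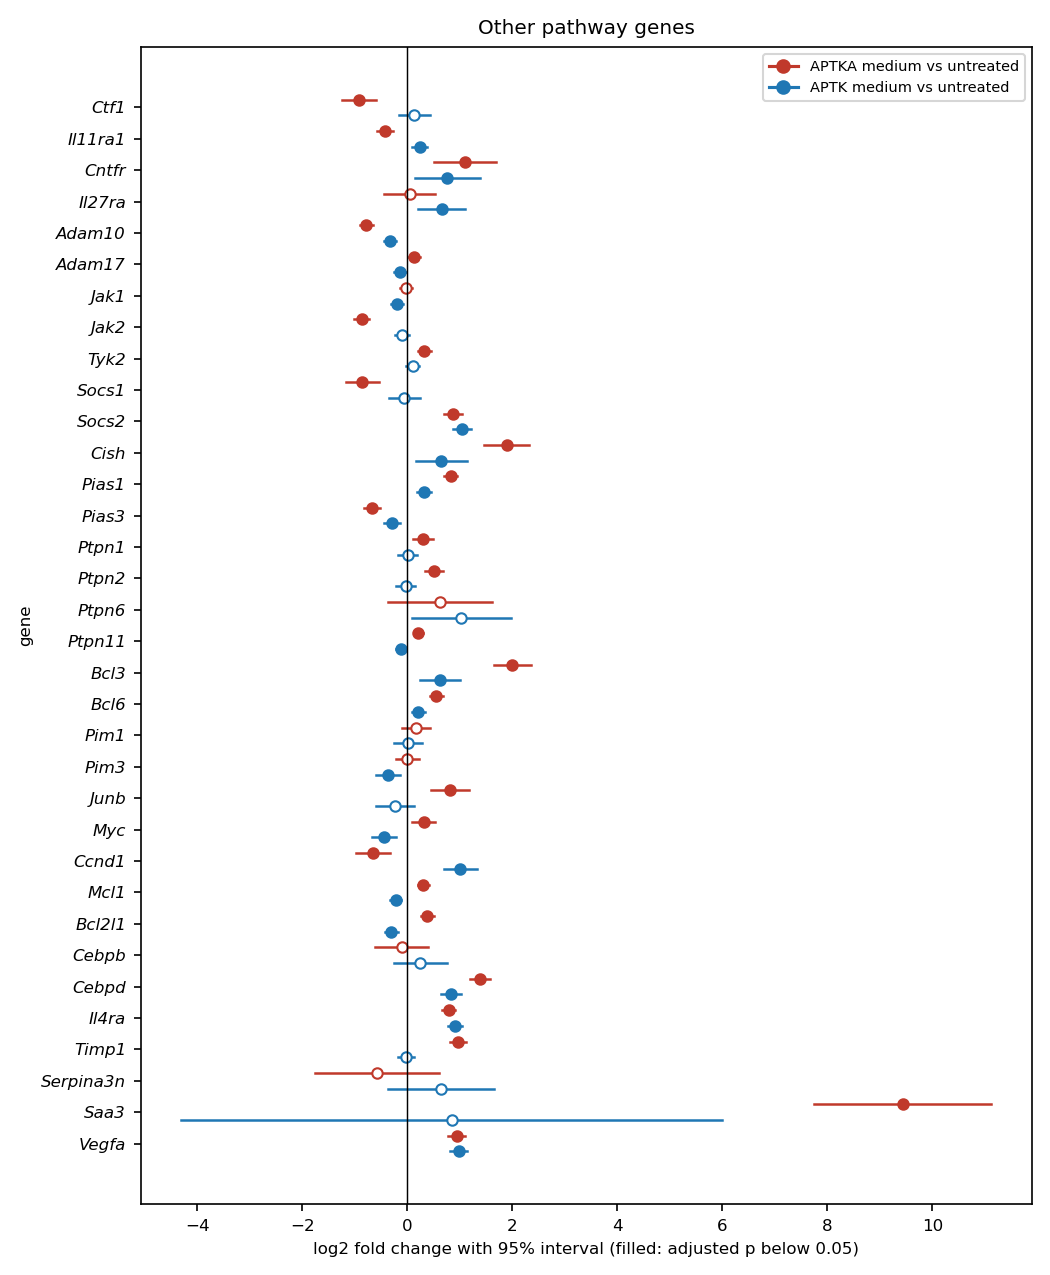
Log2 fold change with 95% intervals for other pathway genes that were tested (genes on the vertical axis, log2 fold change on the horizontal axis), APTKA and APTK medium each against untreated fibroblasts; filled points passed the 5% threshold. Saa3 lies far to the right with APTKA medium at 9.43, and Jak2 and Socs1 lie at -0.87 and -0.86.

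The genes whose levels most resembled those of 4 members over the 20 libraries were found by Pearson correlation of log2 CPM among about 10133 candidates. The libraries fall into 5 groups, so these values mainly describe the order of the groups. For Il6 they were Thoc5 (0.973), Ercc6 (0.969) and Kif3b (0.968), and for Lif Pitpnc1 (0.973), Btg2 (0.968) and St7l (0.966). For Il11 they were Adcy7 (0.942), Aldh1a3 (0.926) and Lancl3 (0.916). The closest genes to Socs3 were Taz (0.862), Plekha4 (0.861) and Spon2 (0.860), a weaker likeness.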

How the data were processed

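The deposited values are raw read counts per Ensembl gene, 1 file a library. Per the submitters' processing notes the tools were bcl2fastq 2.20.0.422, STAR 2.5.2a and featureCounts 1.5.0-p1, with genome build mm10. Strand setting, gene annotation and treatment of multiply mapping reads: not given in the sources used here. Symbols, coordinates (counted from 1) and exon lengths come from GENCODE M21, which matched 47310 of 47729 identifiers.

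Counts were tested in R 4.3.3 with edgeR 4.0.16 (quasi-likelihood test, robust dispersions, TMM scaling, default expression filter by group, 14820 genes) in 1 fit of 5 group means over 20 libraries, for 7 comparisons. P-values were adjusted by Benjamini and Hochberg over all genes tested, at 5%. SE was derived from each log2 fold change and its F statistic, and 95% intervals use the test's degrees of freedom. CPM used TMM-scaled totals.

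Named genes were the 10 members, at most 4 genes that passed for each pathway list and comparison by size of change, and the 3 genes most like each of Il6, Lif, Il11 and Socs3 (mean log2 CPM of at least 2, prior count 2). Members and lists were chosen with earlier results of these data known. All 30 pairs of replicates differed by more than counting noise (chi-square over its degrees of freedom, 4.45 to 79.9). The script was tested on simulated data. Totals were 17.3 to 31.6 M counts a library. Alternatives were DESeq2 1.42.0, RLE and upper quartile scaling, no filter, 5 CPM in 4 libraries, the compared groups alone, a replicate block and each library left out. Leaving out the 2 shallowest libraries was added after seeing the data. The result of 1 gene is not reported here.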

Additional observations from a re-analysis of the deposited data

Results flagged for a closer look

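In Lif, the irradiation effects in the 2 media differed by -0.92 on the log2 scale (edgeR, adjusted p = 0.0303), with all 4 irradiated libraries lower within APTKA and all 4 higher within APTK medium. The report gives the 12 libraries whose omission ends this call. Among 50 sets of 4 libraries (10 members in 5 groups), 2 held a library far from the other 3, where chance gives about 5%. These were Lif in APTKA I, at 24.7 CPM against 18.9 to 19.4 CPM in the others, and Osmr in untreated IV, at 64.4 CPM against 73.2 to 74.4 CPM. Without these libraries Lif rose by 1.41 with APTKA medium and Osmr by 0.53.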

How the results depend on the processing

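Of the 31 member results called, 451 of 474 alternative values kept the call and direction, 23 lost the call and 0 reversed. Of the 39 not called, 608 of 661 kept side and direction, 23 passed, and 30 changed sign without passing. Each loss is given beside its result in the report, and the causes were not tested.

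Counts of calls moved mainly in the irradiation comparisons. Within APTK medium, members called were 0 with the compared groups alone, 4 with DESeq2, 4 without a filter, 0 without the 2 shallowest libraries and 1 to 4 with 1 library left out, against 2. Genes called there were 10, 439, 492, 27 and 32 to 1271, against 205. Within APTKA medium 1 member was called without a filter, and genes called were 512 with the compared groups alone, 307 with DESeq2, 316 without a filter and 34 to 146 with 1 library left out, against 108. For the difference of the irradiation effects, members called were 2 with DESeq2, 3 without a filter and 0 to 3 with 1 library left out, against 1, and genes called were 114, 209 and 4 to 307, against 27. Between the irradiated media 4 members were called with a filter of 5 CPM in 4 libraries, which leaves fewer members to test.

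The values that changed sign lay near 0. Stat3 with APTK medium was at 0.00033 with the compared groups alone, 0.011 with the stricter filter, 0.0055 without a filter, 0.030 with upper quartile scaling and -0.022 to 0.016 with 1 library left out. Within APTKA medium Osmr was at -0.0026 with upper quartile scaling and Il6st at 0.012 without a filter. With 1 library left out, values within APTKA medium spanned -0.026 to 0.090 for Osmr, -0.026 to 0.026 for Il6st, -0.085 to 0.011 for Lifr, -0.059 to 0.13 for Il6ra and -0.27 to 0.093 for Clcf1. They spanned -0.45 to 0.071 for Clcf1 within APTK medium, -0.19 to 0.34 for Clcf1 and -0.16 to 0.031 for Il6ra in the difference of effects, and -0.036 to 0.20 for Socs3 with APTKA medium against untreated.

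With group means removed, 0 of 40 same-numbered pairs of libraries correlated above 0.1 (-0.108 to 0.0959, median 0.00468). The 120 different-numbered pairs spanned -0.176 to 0.186 (median 0.000636), and 3 of 20 libraries correlated best with their own number. Such correlations cannot show whether equal numbers share a culture or mouse, which the labels do not state. With the replicate block the members called were 7, 5 and 10 for APTKA and APTK medium against untreated and between the media, 0 and 2 for irradiation within APTKA and APTK medium, 7 between the irradiated media and 1 for the difference. In the fit without a block 61.4%, 43.4% and 62.9% of all genes were called in the 3 medium comparisons, in the same order. For irradiation the shares were 0.729% and 1.38%, with 61.3% between the irradiated media and 0.182% for the difference. The block changed the call of Osmr between the plain media (0.16, edgeR, adjusted p = 0.0492) and of no other member. Clcf1 had 3 to 24 reads a library, so its values carry wide intervals.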
